A study of Homo sapiens with 16 samples.

Results

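The splicing regulators described here are the SR proteins, the hnRNPs and a small set of related RNA-binding proteins in H1299 cells with and without YEATS2. H1299 cells come from a non-small cell lung carcinoma and lack p53, and YEATS2 is the histone-acetylation reader subunit of the ATAC acetyltransferase complex. The members were every gene of the deposited count table whose symbol begins with SRSF and a digit or with HNRNP, together with TRA2A, TRA2B, PTBP1, PTBP2, PTBP3, MBNL1, MBNL2, MBNL3, RBFOX2 and CELF1. This rule found 46 of the 12676 listed genes, namely 12 SR protein rows, 2 TRA2 proteins, 21 hnRNPs, 3 hnRNP pseudogenes, 3 PTBP proteins, 3 MBNL proteins, and RBFOX2 with CELF1. All 46 passed the filter on low counts, as did every gene of the table.

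SR proteins carry an RNA-recognition domain and a tail rich in arginine and serine, and they mostly bind exonic enhancers and help the spliceosome to recognise an exon. The hnRNPs coat nascent transcripts and often act as silencers, so that the balance between these families sets the inclusion of many alternative exons. Many of these genes limit their own mRNA by splicing in a poison exon, which sends the transcript to nonsense-mediated decay. PTBP, MBNL, RBFOX and CELF proteins bind short motifs in introns and are known for splicing programmes that differ between tissues. Both SR proteins and hnRNPs are abundant in dividing cells.

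RNA-seq was available for 2 shNT and 2 shYEATS2 libraries out of the 16 samples of the series, the others being ChIP-seq samples not analysed here. Both groups were the same cell line exposed for 48 h to lentivirus from the pLKO vector with polybrene at 8 µg per ml and then kept in puromycin at 2 µg per ml, for 4 to 7 days according to the sample labels and for a shorter time according to the methods of the study. The shNT cells carried a non-targeting shRNA and the shYEATS2 cells an shRNA against YEATS2. The latter is shY2-1 by the published description and has no name in the labels. With a single shRNA in these libraries, loss of YEATS2 cannot be told apart in them from an off-target effect of that shRNA. The study also reports RNA-seq with an independent YEATS2 shRNA. It further reports that shRNA-resistant YEATS2 restored growth and ribosomal protein gene expression. Such samples are not among the libraries used here. The knockdown group stands for the pool of cells that survived selection. The study calls the duplicates biological replicates, and their spread is estimated from only 2 libraries on each side. The libraries held 34718921 to 39417787 counted reads. YEATS2 itself had 4482 and 4104 scaled reads in shNT and 665 and 673 in shYEATS2 libraries, a log2 fold change of -2.68 with a standard error of 0.10. Scaled reads are read counts divided by TMM-corrected library sizes and multiplied by their mean. Of 6 epithelial markers, KRT8, KRT18 and KRT7 are among the listed genes while KRT19, EPCAM and CDH1 are not, and all 3 mesenchymal markers are listed. None of 13 immune, endothelial and lung lineage markers is among the listed genes. The summed scaled reads of the epithelial markers were 30360 and 29160 in shNT and 28654 and 19509 in shYEATS2, with log2 fold changes of -0.81 for KRT18 (FDR 0.0283), 0.31 for KRT8 (FDR 0.0958) and 1.55 for KRT7 (FDR 0.00349). Those of the mesenchymal markers were 115019 and 119137 in shNT and 103884 and 87460 in shYEATS2, most of them from VIM (-0.37, FDR 0.0390), while CDH2 had a value of 0.36 (FDR 0.0261) and FN1 rose from 1705 and 2152 to 4649 and 5990 (1.46, FDR 0.00141). Of 3 neuronal and glial markers 1 was listed, SNAP25, which went from 473 and 578 to 977 and 1110 scaled reads. The part of these markers in the results was not tested.

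After YEATS2 KD, 18 of the 46 splicing regulators were lower and 1 was higher at a false discovery rate (FDR) under 0.01 in edgeR's quasi-likelihood test, adjusted over all 12676 genes. Of all genes tested, 12.5% were called lower and 12.9% higher in the same test. The lower members were 4 SR proteins, 13 hnRNPs and 1 hnRNP pseudogene, and the higher one was MBNL2. The members had a median log2 fold change of -0.47, against -0.0019 for all genes tested, and 43 of 46 members had a value below 0 compared with 6350 of 12676 genes. In 37 members both knockdown libraries lay below both controls, which held for 39.8% of all genes, and in 3 members (MBNL2, RBFOX2 and CELF1) both lay above, which held for 39.7% of all genes. The members are more deeply counted than most genes, and among the 3432 genes with a mean between 2413 and 14315 scaled reads, the interquartile range of the members, 14.7% were called lower. The count of 18 was 8 without shNT replicate 1, where 6.71% of all genes were lower, in a fit where the remaining control is assumed to vary like the knockdown libraries. It was 13 without shNT replicate 2 (7.25% of all genes), 25 without shYEATS2 replicate 1 (16.0%) and 14 without shYEATS2 replicate 2 (8.41%). Scaling by total counts moved the median of all genes to 0.12 and that of the members to -0.35, so that the distance between them was 0.47 on the log2 scale with either scaling. Of all calls, 50.8% were higher with TMM scaling and 67.0% with total counts. In bulk RNA, less mRNA in each cell cannot be told apart from fewer cells that express the gene.

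**Figure D1:**
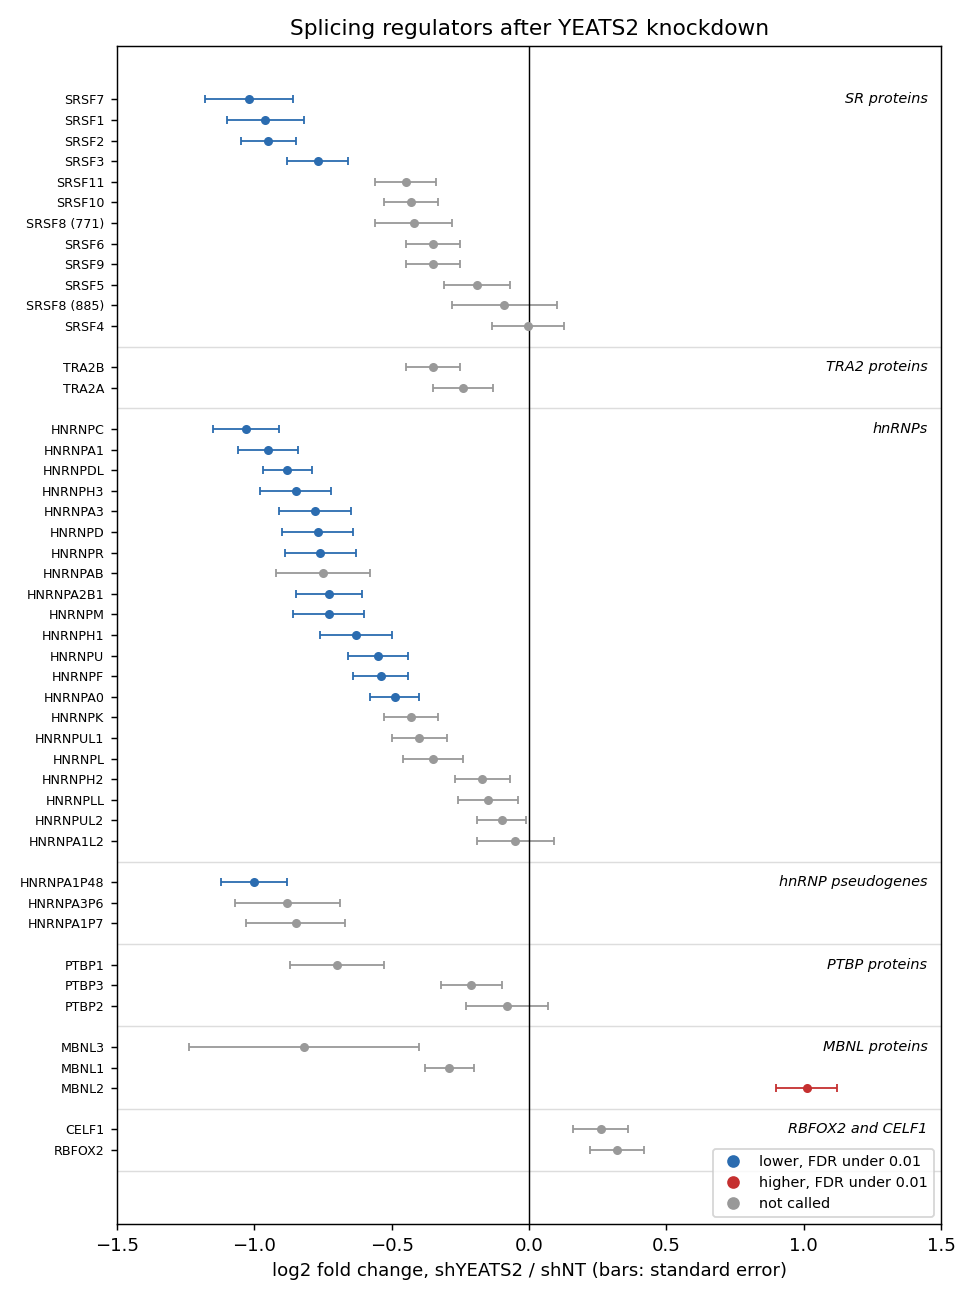
Log2 fold change (shYEATS2 over shNT, x axis) of each of the 46 members, grouped by family, with the standard error as bars. The SR proteins and hnRNPs lie at or left of 0, down to -1.03 for HNRNPC, whereas MBNL2 stands alone at 1.01. The 2 rows of SRSF8 are marked by the last digits of their identifiers.

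Together the 21 hnRNPs took 1.26% and 1.25% of all counted reads in shNT and 0.929% and 0.803% after YEATS2 KD. The 12 SR protein rows took 0.251% and 0.245% in shNT and 0.190% and 0.165% in shYEATS2. Both families thus supplied a smaller part of the counted mRNA in each knockdown library than in either control. RBFOX2 and CELF1 went the other way, with summed shares of 0.0310% and 0.0297% in shNT and 0.0380% and 0.0424% in shYEATS2. On the TMM scale the summed reads changed by -0.65 for the hnRNPs, -0.60 for the SR proteins and 0.29 for RBFOX2 with CELF1, as log2 ratios of the group sums.

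**Figure D2:**
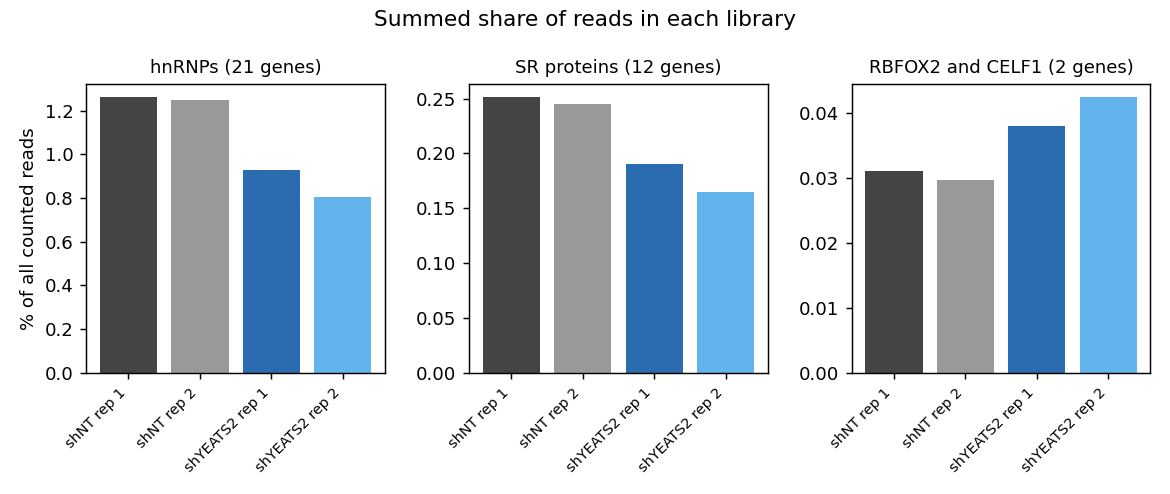
Percentage of all counted reads (y axis, from 0) that fell on the 21 hnRNPs, the 12 SR protein rows and RBFOX2 with CELF1 in each library. For the hnRNPs the bars drop from 1.26% and 1.25% in shNT to 0.929% and 0.803% in shYEATS2, and for RBFOX2 with CELF1 they rise from 0.0297% at the lowest to 0.0424% at the highest.

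Of the 12 SR protein rows, 4 were called lower, where 12.5% of all genes were, and the others did not pass the test. All 12 had a log2 fold change below 0. SRSF7, a zinc-knuckle SR protein that also takes part in mRNA export, had 7382 and 6739 scaled reads in shNT and 4067 and 2910 in shYEATS2. SRSF1, the founding member of the family and a regulator of exon inclusion that can transform cells when overexpressed, had 16881 and 16149 in shNT and 9577 and 7432 in shYEATS2. SRSF2, a component of nuclear speckles, had 9979 and 9890 in shNT and 5367 and 4887 in shYEATS2. In each of these genes the groups lay further apart than the replicates of either group. SRSF3, the smallest SR protein and a factor in export and polyadenylation-site choice, had 19499 and 17734 scaled reads in shNT and 11558 and 10243 in shYEATS2. The log2 fold changes were -1.02 for SRSF7 (standard error 0.16, FDR 0.00376), -0.96 for SRSF1 (0.14, 0.00253), -0.95 for SRSF2 (0.10, 0.00117) and -0.77 for SRSF3 (0.11, 0.00245). With each library left out in turn they stayed within -1.28 to -0.80, -1.15 to -0.79, -1.02 to -0.89 and -0.86 to -0.69 in the same order. SRSF7, SRSF1 and SRSF2 were called in all 4 of these fits, and SRSF3 was not called without shNT replicate 1, at -0.71.

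In the other 8 SR protein rows the values ran from -0.45 to -0.0037 and none passed the FDR threshold. SRSF11 (log2 fold change -0.45, FDR 0.0141) and SRSF10 (-0.43, FDR 0.0148), a factor that turns into a splicing repressor when dephosphorylated, came nearest to it. SRSF11 had 5558 and 5503 scaled reads in shNT and 4364 and 3753 in shYEATS2, and SRSF10 had 6175 and 5920 in shNT and 4791 and 4202 in shYEATS2. In both genes, as in SRSF6 (-0.35, FDR 0.0246) and SRSF9 (-0.35, FDR 0.0238), the knockdown libraries lay below both controls. SRSF5 and SRSF4 did not separate the groups. SRSF5 had 8665 and 9679 scaled reads in shNT and 8696 and 7332 in shYEATS2 (-0.19, standard error 0.12), and SRSF4 had 4183 and 3238 in shNT and 3769 and 3634 in shYEATS2 (-0.0037, standard error 0.13). The table has 2 rows named SRSF8, a retrocopy of SRSF2 in primates. The row ENSG00000180771 had a log2 fold change of -0.42 (FDR 0.0429) and the row ENSG00000271885 one of -0.09 (FDR 0.715), at 369 ± 20.8 and 153 ± 4.46 scaled reads in shNT (SD, n = 2). The TRA2 proteins, SR-like activators with an arginine-serine tail at either end, were not called. TRA2B had 12142 and 11047 scaled reads in shNT and 9529 and 8627 in shYEATS2 (-0.35, standard error 0.10, FDR 0.0290). TRA2A had 2522 and 2368 in shNT and 2231 and 1902 in shYEATS2 (-0.24, standard error 0.11, FDR 0.111).

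**Figure D3:**
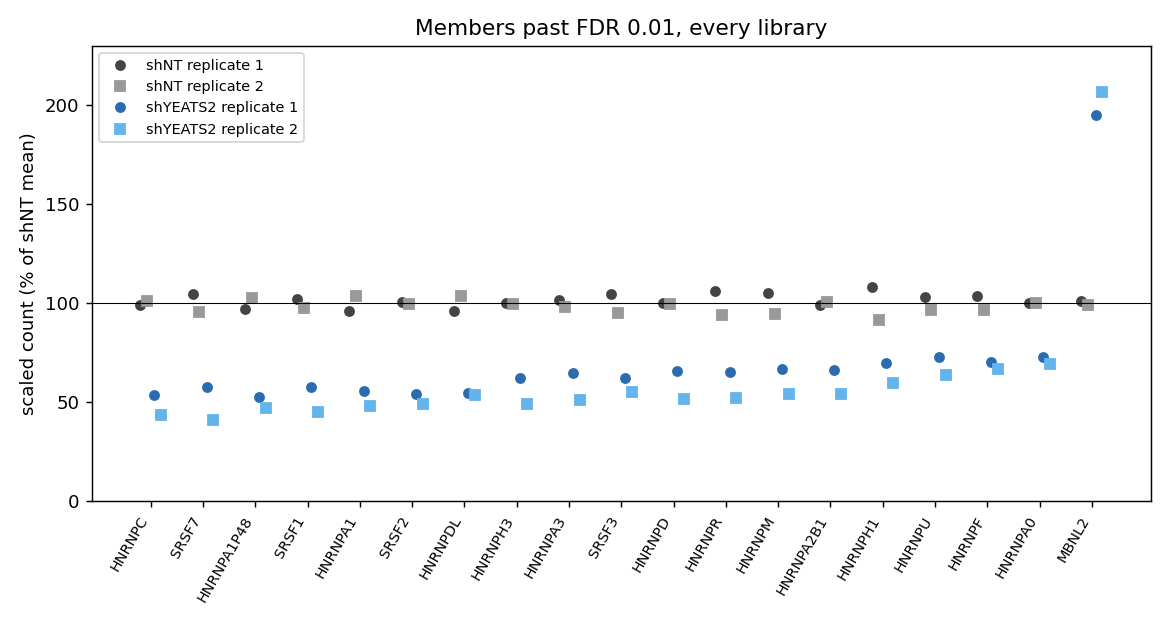
Scaled count of each member past the FDR threshold in each of the 4 libraries, as a percentage of the gene's shNT mean (y axis, from 0). In the 18 lower members both shYEATS2 points sit under both shNT points, from 48.9% of control on average for HNRNPC to 71.1% for HNRNPA0, and MBNL2 rises to 201%.

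Among the hnRNPs, 13 of 21 were called lower and none higher, where 12.5% of all genes were called lower and 12.9% higher. All 21 had a log2 fold change below 0. In 19 of them both knockdown libraries lay below both controls, as in 39.8% of all genes. HNRNPC, which binds uridine tracts and keeps Alu-derived sequence from being spliced in as exons, had 30274 and 30864 scaled reads in shNT and 16495 and 13379 in shYEATS2. Its log2 fold change of -1.03 (standard error 0.12, FDR 0.00158) was the lowest of all members. HNRNPA1, a splicing silencer and the member with the most reads per exon length, had 68914 and 74503 in shNT and 39856 and 34526 in shYEATS2 (-0.95, standard error 0.11, FDR 0.00150). HNRNPA2B1, its close relative, had 53378 and 54337 in shNT and 35660 and 29148 in shYEATS2 (-0.73, FDR 0.00390). HNRNPA3 had 24460 and 23553 in shNT and 15614 and 12335 in shYEATS2 (-0.78, FDR 0.00415), and HNRNPA0 had 8071 and 8068 in shNT and 5889 and 5593 in shYEATS2 (-0.49, FDR 0.00583). HNRNPA1, HNRNPA2B1, HNRNPA3 and HNRNPA0 were thus all called lower.

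HNRNPD and HNRNPDL are paralogues, and HNRNPD, also called AUF1, binds AU-rich elements and acts on mRNA stability as well. HNRNPDL had 9545 and 10321 scaled reads in shNT and 5452 and 5318 in shYEATS2 (log2 fold change -0.88, standard error 0.09, FDR 0.00129). HNRNPD had 16403 and 16308 in shNT and 10787 and 8435 in shYEATS2 (-0.77, standard error 0.13, FDR 0.00460). HNRNPAB, a relative of both, had 15800 and 13690 in shNT and 10275 and 7243 in shYEATS2. Its change of -0.75 was similar in size, but the replicates lay further apart and it did not pass (standard error 0.17, FDR 0.0127).

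The HNRNPH and HNRNPF proteins bind runs of G. HNRNPH3 had 11674 and 11596 scaled reads in shNT and 7235 and 5714 in shYEATS2 (log2 fold change -0.85, FDR 0.00317). HNRNPH1 had 24445 and 20640 in shNT and 15716 and 13497 in shYEATS2 (-0.63, FDR 0.00787), and HNRNPF had 15367 and 14299 in shNT and 10461 and 9944 in shYEATS2 (-0.54, FDR 0.00509). HNRNPH2, the X-linked member of the subfamily, had 2881 and 3219 in shNT and 2648 and 2789 in shYEATS2 and was not called (-0.17, standard error 0.10, FDR 0.214). HNRNPR, which also serves in RNA transport, had 12151 and 10777 in shNT and 7509 and 5992 in shYEATS2 (-0.76, FDR 0.00498). HNRNPM had 20232 and 18240 in shNT and 12820 and 10386 in shYEATS2 (-0.73, FDR 0.00501). HNRNPU, a nuclear scaffold protein that also binds chromatin, had 36764 and 34383 in shNT and 25978 and 22779 in shYEATS2 (-0.55, FDR 0.00703). HNRNPH1, HNRNPU, HNRNPF and HNRNPA0 were the members called here that lost the call with total-count scaling. Each of the other 14 was called lower in all 12 alternative fits that kept the 4 libraries. The fit without a count filter is among these 12 and repeats the main fit, as the filter removed no gene. HNRNPA3, HNRNPD, HNRNPR, HNRNPA2B1, HNRNPM, HNRNPH1, HNRNPU, HNRNPF and HNRNPA0 were not called in every fit with a library left out. Their log2 fold changes in those fits stayed between -0.96 and -0.45.

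The hnRNPs that were not called included some of the most abundant. Levels between genes are compared here per exon length, as scaled reads per 1000 bases of annotated exon in a library of 1000000 reads. HNRNPA1 stood first with 294 in shNT and 152 in shYEATS2 on that scale, followed by HNRNPUL1 with 238 and 181 and HNRNPK with 221 and 164. HNRNPUL1 had 58737 and 57122 scaled reads in shNT and 46548 and 41523 in shYEATS2, with a log2 fold change of -0.40 (standard error 0.10, FDR 0.0172). HNRNPK, a poly(C)-binding protein with many roles outside splicing, had 47357 and 44369 in shNT and 35806 and 32467 in shYEATS2 (-0.43, standard error 0.10, FDR 0.0134). Neither gene's groups overlapped. HNRNPL, which binds CA repeats, had a value of -0.35 (FDR 0.0398), whereas its paralogue HNRNPLL had -0.15 (FDR 0.275). HNRNPUL2 (-0.10) and the retrocopy HNRNPA1L2 (-0.05) were at 93.1% and 96.4% of control. Sorted by level per exon length in shNT, 8 of the 13 most abundant members with a gene model and 8 of the 14 in the middle were lower, whereas 1 of the 14 least abundant was lower and 1 higher, pseudogenes left out. The median log2 fold changes of these groups were -0.73, -0.59 and -0.13. A gene counted in fewer reads is also less likely to pass, and the part of this in the counts was not tested.

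**Figure D4:**
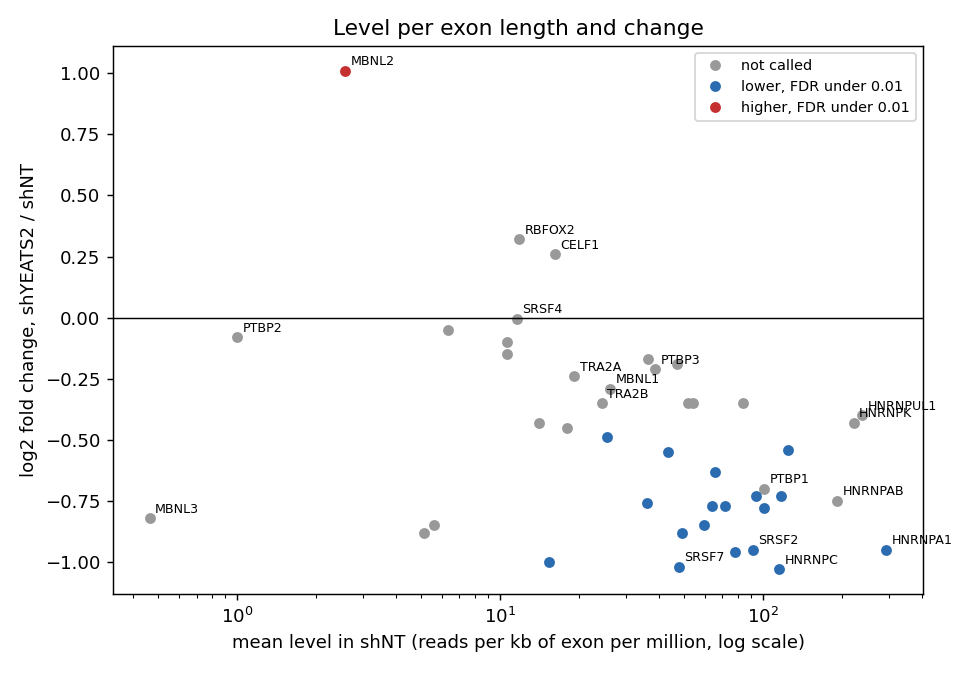
Mean level in shNT (x axis, log scale, scaled reads per 1000 exon bases and 1000000 reads) against log2 fold change (y axis) for the 44 members with a gene model. The members called lower lie at levels from 15.3 to 294, while MBNL2, at 2.58, is the single member called higher.

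The 3 pseudogene rows moved like the genes they are named after. HNRNPA1P48 had 1040 and 1103 scaled reads in shNT and 566 and 508 in shYEATS2 (50.1% of control, FDR 0.00152). HNRNPA1P7 (log2 fold change -0.85, FDR 0.0101) and HNRNPA3P6 (-0.88, FDR 0.0103) lay just outside the threshold. The ratio of HNRNPA1 to HNRNPA1P48, in reads per exon base, was 19.0 and 19.4 in shNT and 20.2 and 19.5 in shYEATS2, nearly the same in every library. The retrocopy HNRNPA1L2 did not move like HNRNPA1, with 305 and 316 in shNT and 292 and 306 in shYEATS2 (-0.05). The annotation used here holds 74 pseudogenes named after HNRNPA1 and 16 named after HNRNPA3, and 20 of the 46 members have a pseudogene of their name. Reads of these genes could thus have been split or lost in counting, and the pseudogene rows could hold reads of the genes they are named after. This was not tested. Without the pseudogene rows, 17 of 43 members were lower and 1 higher, with a median of -0.43.

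The regulators known for tissue-specific splicing did not move as one group. MBNL proteins drive the switch from fetal to adult splicing in muscle and brain, and they are held back in myotonic dystrophy by expanded repeats. MBNL2 had 494 and 484 scaled reads in shNT and 955 and 1011 in shYEATS2, which made it 2.01-fold higher (log2 fold change 1.01, standard error 0.11, FDR 0.00135). It was called higher in all 12 alternative fits with 4 libraries and in all 4 fits with a library left out, where its value was 0.97 to 1.05. MBNL1, the more abundant paralogue in these cells, had 9351 and 9704 in shNT and 7780 and 7754 in shYEATS2 (-0.29, standard error 0.09, FDR 0.0326). MBNL3, with 255 and 186 in shNT and 183 and 68.1 in shYEATS2, varied too much between replicates for a call (-0.82, standard error 0.42, FDR 0.149), and its value ran from -1.69 without shYEATS2 replicate 1, where it was called lower, to -0.27 with another library left out. MBNL2 thus came closer to MBNL1 in level. Per exon base, the ratio of MBNL2 to MBNL1 within a library was 0.101 and 0.0958 in shNT and 0.236 and 0.250 in shYEATS2. A ratio within a library does not depend on the scaling, but with 2 libraries against 2 the exact permutation test (two-sided) gave p = 0.333, the smallest value that it allows.

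PTBP1 binds pyrimidine tracts and represses neuronal exons, among them an exon of its paralogue PTBP2. PTBP1 had 30291 and 25298 scaled reads in shNT and 19761 and 14477 in shYEATS2 (log2 fold change -0.70, standard error 0.17), and with an FDR of 0.0144 it was not called. PTBP2 had 710 and 762 in shNT and 602 and 784 in shYEATS2 (-0.08, standard error 0.15), and PTBP3 had 11616 and 11651 in shNT and 10835 and 9348 in shYEATS2 (-0.21, standard error 0.11). The PTBP2 groups overlapped. The ratio of PTBP2 to PTBP1 per exon base was 0.00876 and 0.0113 in shNT and 0.0114 and 0.0202 in shYEATS2, so PTBP2 remained far less abundant than PTBP1 in every library. RBFOX2, an RBFOX protein tied to epithelial-mesenchymal splicing, had 5442 and 5185 scaled reads in shNT and 6302 and 6922 in shYEATS2 (0.32, standard error 0.10, FDR 0.0342). CELF1, which acts against MBNL proteins on many exons, had 6435 and 5985 in shNT and 7023 and 7858 in shYEATS2 (0.26, standard error 0.10, FDR 0.0729). Neither passed in the quasi-likelihood test, and of the 12 alternative fits with 4 libraries 1 called them, exactTest with total counts, which was added after seeing the data (0.44 and 0.38).

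**Figure D5:**
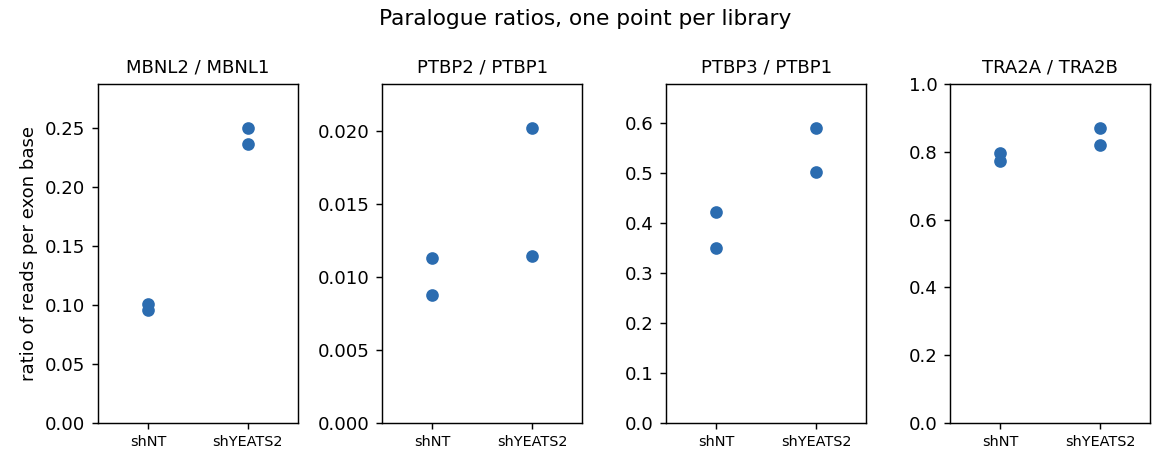
Ratio of reads per exon base between paralogues in each library (y axis, from 0, one point a library). The MBNL2 to MBNL1 ratio moves from 0.101 and 0.0958 in shNT to 0.236 and 0.250 in shYEATS2, while the TRA2A to TRA2B ratio stays between 0.773 and 0.871.

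Replicates of a group differed in 1 direction in most members. In the knockdown libraries, replicate 2 lay below replicate 1 in 39 of 46 members (84.8%) compared with 50.6% of all genes. The median log2 difference there was -0.18 over the members and -0.00 over all genes. In the control libraries, replicate 2 lay below replicate 1 in 33 members (71.7%), against 49.9% of all genes. The other splicing regulators leaned the same way, with replicate 2 lower in 68.7% of 67 genes in either group, and the genes in the members' range of counts had it lower in 53.5% in the knockdown and 60.3% in the control libraries. YEATS2 was at nearly the same level in both knockdown libraries. Leaving out shYEATS2 replicate 1 gave a members' median of -0.54 and leaving out replicate 2 gave -0.41, so the direction was the same with either library, and 25 and 14 members were lower in these fits.

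Some features of sequence and annotation can be set beside these values. Of the 42 coding members with a gene model 30 (71.4%) have an annotated transcript that undergoes nonsense-mediated decay, against 48.8% of the 11435 coding genes of the table. Among coding members called lower this held for 14 of 18, HNRNPA1P48 being counted as coding by the annotation, and among those not called for 15 of 23. HTSeq counts sum all transcripts of a gene, so a shift between productive and decayed transcripts cannot be seen in them. Of the members, 21 overlap a gene on the opposite strand, and reads of such pairs cannot be told apart in a library made without strand marking.

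The word AAGTTCA in 3′ UTRs, which was picked because genes that carry it had lower values in these same libraries, was found in 12 of 42 members (28.6%) and in 15.2% of 11410 genes with an annotated 3′ UTR. The 3′ UTRs of the members were also longer, with a median of 2230 bases against 1520. Of the 18 lower members 6 carry it, namely HNRNPC, SRSF7, HNRNPA1, HNRNPDL, SRSF3 and HNRNPA2B1. Of the 23 members not called, 6 carry it too, namely SRSF11, TRA2B, MBNL1, HNRNPH2, HNRNPLL and RBFOX2, the last with a value of 0.32. Their sites and those of HNRNPA1 are not printed below. The 12 members with the word had a median log2 fold change of -0.59 and the other members one of -0.46. Over all genes with a 3′ UTR the medians were -0.15 with and 0.01 without it. The word was picked for lower values in these libraries, so these differences are no independent result. Among the members not called the median was -0.23 with and -0.35 without. The word sites below, from 5 lower members, are printed 5′ to 3′ on the transcript strand with the word in capitals, in GRCh37 coordinates, and each lies in the annotated 3′ UTR.
HNRNPC, chr14:21679018-21679044, minus strand: attcatacatAAGTTCAgtagttgctt
SRSF7, chr2:38972251-38972274, minus strand: agctctcAAGTTCAccctttaggg
HNRNPDL, chr4:83345297-83345323, minus strand: ttcttgataaAAGTTCAgatacaaaag
HNRNPDL, chr4:83344489-83344515, minus strand: gaatggaagtAAGTTCAtttttaagtt
HNRNPDL, chr4:83344431-83344457, minus strand: tgaatcctgtAAGTTCAaatttatgat
SRSF3, chr6:36571067-36571093, plus strand: catgatgtaaAAGTTCAcaatatggtt
HNRNPA2B1, chr7:26231152-26231178, minus strand: gacggctactAAGTTCAgccagtctta
HNRNPA2B1, chr7:26230576-26230602, minus strand: gttaggctgcAAGTTCAataaatcatg

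Promoters were read from RefSeq (GRCh38.p14) as 250 bases before to 50 after the gene start for 38 members, 15 of them lower, and for 9085 genes of the table. On either strand, the E-box CACGTG was in 7 of 38 member promoters (18.4%) and in 10.1% of those from all genes, the CCAAT box CCAAT in 19 of 38 and 36.7%, and TATAAA in 5 (13.2%) and 5.12%. The GC box GGGCGG was in 23 (60.5%) and 70.3%, the ETS word CCGGAAG in 4 of 38 and 19.8%, and the CRE word TGACGT in 7 (18.4%) and 11.6%. None of these differences was tested. The E-box, the motif of MYC and MAX among other factors, was in the promoters of 5 lower members, whose windows are shown on the gene's strand with the E-box in capitals.
HNRNPA3, chr2:177212703-177212748, plus strand: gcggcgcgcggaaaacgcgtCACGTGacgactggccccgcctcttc
HNRNPD, chr4:82373993-82374038, minus strand: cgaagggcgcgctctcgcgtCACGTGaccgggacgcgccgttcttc
HNRNPDL, chr4:82430356-82430401, minus strand: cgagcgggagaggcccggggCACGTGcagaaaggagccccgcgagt
HNRNPH3, chr10:68331623-68331668, plus strand: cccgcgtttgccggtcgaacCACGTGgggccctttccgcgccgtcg
HNRNPM, chr19:8444913-8444958, plus strand: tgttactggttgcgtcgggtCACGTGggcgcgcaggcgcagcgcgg
In HNRNPD and HNRNPA3 the E-box began 27 and 71 bases before the start site, and in HNRNPDL 156 bases before it. The members HNRNPH2 and HNRNPUL1, which were not called, hold it too.

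Fewer genes were called in a wider set of splicing regulators. Of 83 other genes chosen for their known roles, 67 are in the table, of which 10 were lower (14.9%) and 1 higher, and their median log2 fold change was -0.18. In the same fit 12.5% of all genes were lower and 12.9% higher. Most of the lower calls were in the list of hnRNP-like and other RNA-binding regulators, where 9 of 36 genes were lower and none higher, with a median of -0.32. SYNCRIP, also known as hnRNP Q, had 30467 and 28016 scaled reads in shNT and 19090 and 15056 in shYEATS2 (log2 fold change -0.78, FDR 0.00461), and RBMX, also known as hnRNP G, had 19439 and 18812 in shNT and 12543 and 10510 in shYEATS2 (-0.73, FDR 0.00345). The other lower genes of this list that are named here were RBM38 (-0.92), DAZAP1 (-0.87), FUBP1 (-0.79), the paraspeckle protein SFPQ (-0.59) and TARDBP (-0.53), which codes for TDP-43. In SR-related proteins, 1 of 19 was lower, RNPS1, a factor that marks spliced mRNA as part of a complex at exon junctions (6084 and 6054 scaled reads in shNT, 3230 and 2905 in shYEATS2, log2 fold change -0.98, FDR 0.00116). The kinases and phosphatase that act on SR proteins had a median of 0.18 over 9 genes. SRPK2 was the 1 call, 11.1% of them, against 12.9% of all genes called higher. It had 2224 and 2012 scaled reads in shNT and 3605 and 4634 in shYEATS2 (0.96, standard error 0.14, FDR 0.00282). The 3 listed genes of tissue-restricted regulators held no call, with log2 fold changes from -0.08 to 1.20. The 10 lower calls were 3 without shNT replicate 1 (6.71% of all genes lower) and 20 without shYEATS2 replicate 1 (16.0%), and DESeq2 called 21 of the 67 lower and 4 higher, with 17.3% of all genes lower.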

How the data were processed

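Reads of 2 shNT and 2 shYEATS2 libraries were counted per gene with HTSeq v0.6.1p1 by the authors, who deposited raw read counts that are not normalized. The methods name the RNA-Seq unified mapper and hg19, and the submitters' processing notes name TopHat2 2.0.10. The gene annotation is not given in the sources used here. Columns of the authors' own comparison (fold changes, p-values, FDR) were not used. A minimum of 10 reads in 2 or more libraries kept all 12676 genes, which were fitted in R 4.3.3 by the quasi-likelihood test of edgeR 4.0.16 after TMM scaling, with factors from 0.952 to 1.045, and called at a Benjamini-Hochberg FDR under 0.01. As alternatives, the counts were tested with DESeq2 1.42.0, with exactTest of edgeR, and with limma-trend of limma 3.58.1 at pseudocounts of 0.1, 1 and 10, and with other scalings, filters and thresholds, a replicate block and libraries left out. The exactTest with total counts was added after seeing the data. The fit without a filter repeats the main fit, and the limma-trend fits differ from each other only in the pseudocount. The alternative fits are thus not independent checks. Scripts were tested on simulated data. Positions and exon lengths came from a GENCODE annotation on GRCh37, matched by Ensembl identifier for 44 of 46 members.

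The members and gene lists were chosen with earlier results of these data known. Values in each library are given for members past the threshold, for the 3 members of highest level per exon length and for the TRA2, PTBP and MBNL paralogues, and at most 10 other splicing regulators are named, by size of change among those called, of which 1 is not reported here. Other members with values in each library were added after their values were seen. p-values measure the spread between these libraries only.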

Additional observations from a re-analysis of the deposited data

How the results depend on the processing

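With 2 libraries a group, calls near the threshold depend on the estimate of replicate error. DESeq2 and exactTest on the TMM scale each called 26 members lower, where 17.3% and 19.7% of all genes were lower. The quasi-likelihood test with total counts called 14 (9.20% of all genes). SRSF10, SRSF11, HNRNPAB, HNRNPK, HNRNPUL1, PTBP1, HNRNPA1P7 and HNRNPA3P6, not called above, were lower with both DESeq2 and exactTest on the TMM scale. The methods of the study name exactTest as its test. At an FDR under 0.05, 32 members were lower, and the share of all genes at that threshold is not given here. The counts with a library left out are given above. The 1 higher member became 2 at an FDR under 0.05 and 3 with exactTest and total counts. In the latter, higher calls over all genes went from 1630 to 3464. The members' median ranged from -0.54 to -0.41 with a library left out and was -0.35 with total counts, in both the quasi-likelihood fit and exactTest, which follows from the shift of all genes. The other splicing regulators called lower were 21 with DESeq2, 21 with exactTest on the TMM scale and 25 at an FDR under 0.05, and from 3 to 20 with a library left out. Those called higher were 4 with DESeq2, 6 with exactTest on the TMM scale and 8 with exactTest and total counts. In these fits 2159, 2596 and 3464 of all genes were higher. They were 5 with total counts and 3 with the upper quartile (2363 and 1820 of all genes). With limma-trend they were 2 at each of the 3 pseudocounts (1648 to 1650 of all genes). They were 2 with a mean count of at least 100 (1621 of 12137 genes) and 7 at an FDR under 0.05. The cause of these differences was not tested. YEATS2 stayed lower in every alternative.

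Members near 0 changed sign. SRSF4 was 0.12 with total counts (both tests), 0.02 with the upper quartile, 0.0079 with limma-trend at each pseudocount, 0.0091 with the mean count filter and from -0.18 to 0.19 with a library left out. With total counts (both tests), the SRSF8 row ENSG00000271885 was 0.03, HNRNPUL2 0.02, HNRNPA1L2 0.07 and PTBP2 0.03. That SRSF8 row ranged from -0.23 to 0.04 and PTBP2 from -0.29 to 0.09 with a library left out.

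The replicate numbers are shared between the groups, but nothing in the labels says that they mark a common batch or day, and the deviations of same-numbered libraries from their group means correlated at 0.403 across genes in the 2 pairs. With the replicate block, 30 members were lower, 25 other splicing regulators were lower and 5 higher, and SRSF4 was 0.0075, while the share of all genes called lower went from 12.5% to 21.4%.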
